A study of Rattus norvegicus with 32 samples.

Results

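Ceramide is the hub of sphingolipid metabolism, and 10 genes whose enzymes make it, release it, or consume it were followed in rat liver sinusoidal endothelial cells (LSECs). They were the ceramide synthases Cers2, Cers4, Cers5 and Cers6, the sphingomyelinases Smpd1, Smpd2 and Smpd3, the acid ceramidase Asah1, and the sphingomyelin synthases Sgms1 and Sgms2. These 10 genes were picked by symbol out of 32623 genes in each deposited table, and all 10 passed the low-count filter in each of the 7 comparisons made. RNA was sequenced in 32 libraries of LSECs. The carbon tetrachloride (CCl4) model has 22 of them, from 6 healthy rats, 5 rats with acute injury after 2 weeks of CCl4 inhalation, 5 rats with fibrosis after 6 weeks and 6 rats with cirrhosis after 12 to 14 weeks. The other 10 belong to a thioacetamide (TAA) experiment, with 5 libraries labelled control (numbers T1 to T5) and 5 labelled TAA control (T10 to T15).

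Male Wistar Han rats were used in the CCl4 model and phenobarbital was added to the drinking water, which raises the toxicity of CCl4. Whether the healthy rats drank it was not settled. Ages are not given in the sources used here. The labels of the cirrhotic libraries say only that the rats were treated with CCl4, and their duration comes from the description of the study. Cells were separated on an iodixanol density gradient with no antibody selection named, and they were isolated some days after the last dose, so that other liver cells can be present. Which group of the TAA experiment received TAA was not settled, because the labels call both groups controls while the paper describes rats injected with TAA and rats given saline. The labels also name Wistar Han for these libraries where the paper names Sprague-Dawley rats.

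A ceramide synthase joins a sphingoid base to a fatty acid, and each member of the family prefers fatty acids of certain lengths. Cers2 makes ceramides with very long chains and is the main ceramide synthase of liver, Cers4 uses long and very long chains, and Cers5 and Cers6 make the shorter ceramides with palmitic acid. Sphingomyelinases release ceramide from sphingomyelin. Smpd1 does so in lysosomes and outside the cell, while Smpd2 and Smpd3 are neutral enzymes of inner membranes and of the plasma membrane and Golgi. The Smpd3 enzyme is known for its part in the release of exosomes. Asah1 splits ceramide in the lysosome into a fatty acid and sphingosine, and Sgms1 in the Golgi and Sgms2 at the plasma membrane turn ceramide into sphingomyelin.

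Totals per library ranged from 25646531 to 46464289 expected counts. LSEC markers did not keep one level over the stages. The summed level of 11 LSEC markers was 17400 to 33200 CPM (counts relative to library size, scaled with TMM factors) in healthy libraries, 3850 to 4470 in acute, 2640 to 3840 in fibrosis and 16900 to 21800 in cirrhosis. Of these 11 markers, 9 fell at the acute stage and 10 in fibrosis, among them the scavenger receptor Stab2, which had a mean of 3480 CPM in healthy LSECs against 148 in acute injury, 180 in fibrosis and 3300 in cirrhosis. The endothelial cadherin Cdh5 had means of 1290, 1600, 1040 and 1510 CPM at the same stages. In cirrhosis 4 of the 11 LSEC markers were called lower and 1 higher than in healthy libraries. Stab1 had means of 4960 CPM in healthy and 1180 CPM in cirrhotic libraries. The symbol of a twelfth marker, Pecam1, was not found in the tables. Hepatocyte markers summed to 1410 to 30100 CPM in healthy libraries, 152 to 959 in acute, 1410 to 5620 in fibrosis and 3200 to 15300 in cirrhosis. Lymphocyte markers summed to 15.5 to 214, 0.53 to 2.45, 2.26 to 18.6 and 13.8 to 33.7 CPM. Cholangiocyte markers summed to 1.72 to 26.6, 0.354 to 0.632, 2.43 to 14.8 and 6.07 to 10.8 CPM. Neutrophil markers summed to 3.54 to 45.1, 0.272 to 1.04, 0.233 to 2.61 and 2.51 to 13.6 CPM. Macrophage markers summed to 328 to 3250, 75.2 to 224, 33.0 to 207 and 786 to 2870 CPM. The Kupffer cell marker Timd4 was at 0 in each acute and fibrosis library, but its healthy mean was only 0.336 CPM. Stellate cell markers summed to 351 to 1000, 1340 to 2150, 1320 to 1760 and 934 to 2210 CPM, but the sums of the acute and fibrosis libraries were mostly Reln, with means of 167 CPM in healthy, 1680 in acute and 1380 in fibrosis libraries. Of the 10 stellate markers, 7 were called lower and 1 higher in acute injury, and the collagen Col3a1 had means of 223 CPM in healthy and 5.2 CPM in acute libraries. In fibrosis 4 were lower and 3 higher, and in cirrhosis 8 were higher. By the thresholds given below, 37.9%, 34.9% and 24.7% of all genes were called lower in acute injury, fibrosis and cirrhosis. The shares called higher were 35.5%, 35.3% and 27.1%. The part of other cell types in the results below was not tested. In bulk RNA, fewer cells of a type and less RNA per cell cannot be told apart. Healthy libraries 5 and 6 differed from the other healthy libraries in several of the 10 genes, and values without them are given where they change a call or a statement.

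Genes were called at an adjusted p-value under 0.05 (limma-voom with Benjamini-Hochberg adjustment over all genes tested) together with a fold-change above 1.5. In acute injury, 7 of the 10 genes were called, with Cers6 and Sgms1 higher than in healthy LSECs and Smpd2, Cers4, Asah1, Smpd1 and Cers5 lower. This share is read against 73.4% of all 14317 genes tested, with 35.5% higher and 37.9% lower. In fibrosis 7 were called, with Cers6, Sgms1 and Sgms2 higher and Smpd2, Cers4, Asah1 and Cers5 lower, against 70.2% of all genes (35.3% higher, 34.9% lower). In cirrhosis 7 were called, with Sgms1 and Asah1 higher and Smpd1, Smpd2, Cers5, Smpd3 and Cers2 lower, against 51.8% of all genes (27.1% higher, 24.7% lower). In the first 2 comparisons the share of the 10 genes is thus close to that of all genes. In cirrhosis, leaving out single libraries gave 5 to 8 of the 10 genes and 6833 to 8478 of all genes. The libraries of the groups did not overlap in 4, 7 and 5 of the 10 genes, beside 60%, 58.7% and 27.2% of all genes. With an unadjusted p-value in place of the adjusted one, 7 of the 10 genes were called in each of the 3 comparisons, beside 74.1%, 71.2% and 54.5% of all genes. The 3 comparisons share the 6 healthy libraries. Any difference in how the CCl4 groups were prepared or sequenced was not tested and cannot be told apart from stage. Without healthy libraries 5 and 6, 6, 9 and 7 of the 10 genes were called. Over all alternatives run, this one among them, 9442 to 12653, 9270 to 12104 and 6833 to 9331 of all genes were called. Whether the 10 genes gained more calls than all genes did was not tested. Scaling by library size alone, without TMM factors, moved the median log2 fold change of all genes up by 0.408, 0.398 and 0.346, and then 3 genes were called higher and 2 lower in acute injury in place of 2 and 5, while 4 were higher and 4 lower in cirrhosis in place of 2 and 5. The split of all genes called moved with it, from 48.4% to 58.2% higher in acute injury, from 50.3% to 60.9% in fibrosis and from 52.2% to 71.3% in cirrhosis.

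Between the injured stages the counts were uneven. From acute injury to fibrosis 2 of the 10 genes were called, Sgms2 upwards and Cers6 downwards, against 11% of all genes (10.2% higher, 0.732% lower). With an unadjusted p-value the count was also 2, beside 15.7% of all genes. Between fibrosis and cirrhosis 7 were called, with Smpd2, Cers4 and Asah1 higher in cirrhosis and Cers6, Sgms1, Smpd1 and Smpd3 lower, against 63.8% of all genes (34.3% higher, 29.5% lower; 64.2% with an unadjusted p-value, where the count was again 7). The comparison of cirrhosis with acute injury gave the same 7 genes in the same directions, against 69.3% of all genes (37.5% higher, 31.8% lower; 69.7% with an unadjusted p-value, where the count was again 7), and shares the cirrhotic libraries with the one before. Under the alternatives run, it called 7 to 9 of the 10 genes and 9030 to 12380 of all genes. In these 3 comparisons the groups did not overlap in 5, 8 and 7 of the 10 genes, beside 17.2%, 63.3% and 65.9% of all genes. The median log2 fold change of the 10 genes was -0.52 in acute injury, -0.43 in fibrosis and -0.42 in cirrhosis against healthy LSECs, beside medians of -0.09, -0.03 and 0.07 over all genes tested.

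**Figure D1:**
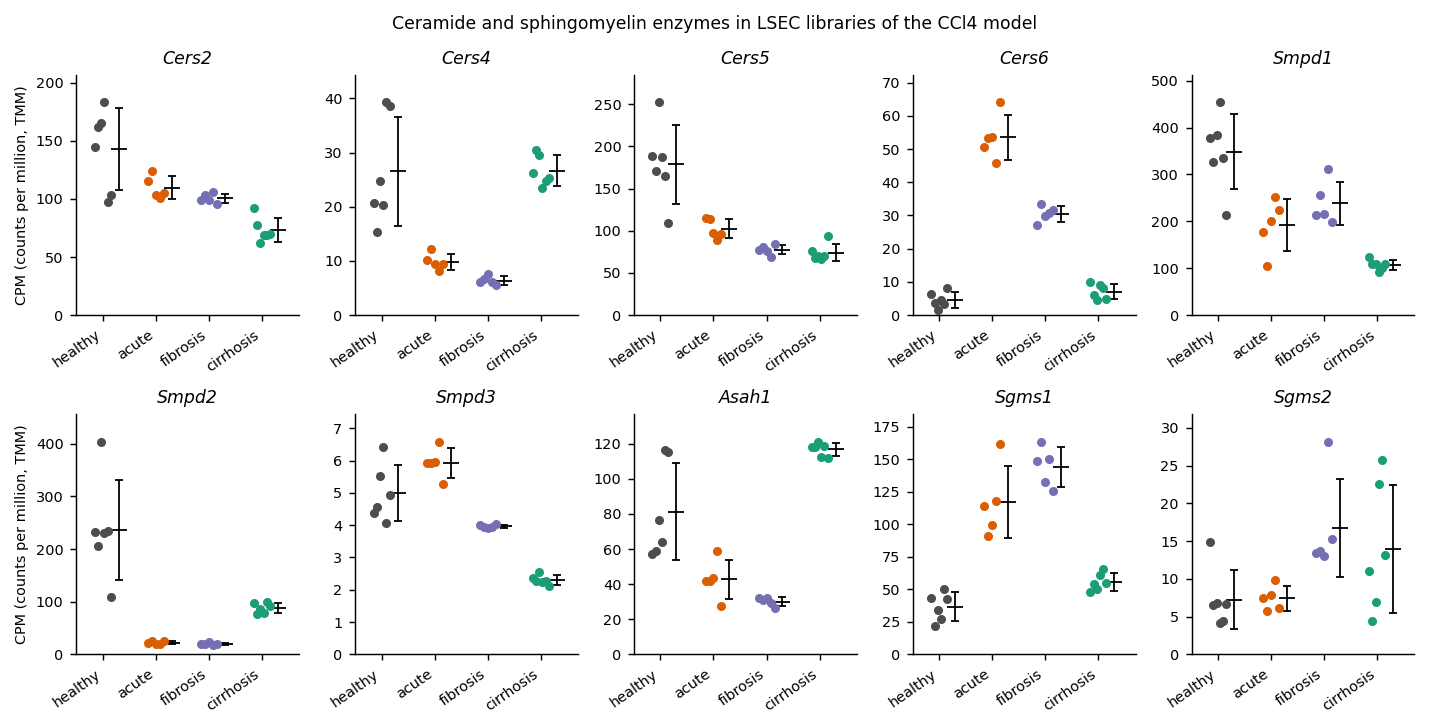
Level of each of the 10 genes in CPM (vertical axis, linear from 0) in each library of the healthy, acute, fibrosis and cirrhosis groups. Points are libraries, and the bar with whiskers is the mean and SD of 5 or 6 libraries. Cers6 is high in acute and fibrosis libraries (27.0 to 64.1 CPM) and at most 9.93 CPM elsewhere, while Smpd2 is at most 25.5 CPM in those stages and at least 76.2 CPM elsewhere.

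Cers6 had the widest range of the 10 genes over the stages, 3.52 on the log2 CPM scale between its highest and lowest group means. Its level was 50.7, 53.3, 53.6, 45.9 and 64.1 CPM in the 5 acute libraries, and 27.0, 33.4, 29.8, 30.7 and 31.6 CPM in the 5 fibrosis libraries. In healthy LSECs it ran from 1.68 to 8.32 CPM with a median of 4.16, and in cirrhosis from 4.60 to 9.93 CPM with a median of 7.07. The acute libraries were all above the fibrosis libraries, and these were all above the healthy and the cirrhotic ones, which overlapped. Cers6 (ENSRNOG00000024595) rose 12.8-fold in acute injury (log2 fold change 3.68, standard error 0.310, adjusted p = 4.95e-07) and 7.49-fold in fibrosis (2.90, standard error 0.306, adjusted p = 4e-06). It then fell 4.48-fold between fibrosis and cirrhosis (adjusted p = 2.68e-07). Cirrhotic and healthy means, 7.07 ± 2.25 and 4.67 ± 2.38 CPM (SD, n = 6 each), had a log2 difference of 0.68 with a 95% interval from -0.06 to 1.41 and did not pass the test (adjusted p = 0.105). It passed without healthy library 6 (0.89, adjusted p = 0.0361), with library size alone (1.04, adjusted p = 0.0276) and in a single fit of the 4 CCl4 groups (0.67, adjusted p = 0.0404).

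The promoters of the genes with the widest ranges are shown for the letters they hold. RefSeq's promoter table (assembly GRCr8, not the assembly the reads were mapped to) has entries for 8 of the 10 genes, and 250 bases before the gene start are printed 5′ to 3′ on the strand of the gene. Capitals mark an E-box (CACGTG), a GC box (GGGCGG) or a TEAD motif (GGAATG), each searched on both strands. The Cers6 promoter lies at chr3:74038611-74038860 on the plus strand and the Sgms1 promoter at chr1:239672894-239673143 on the minus strand. Both genes rose in acute injury and fibrosis.
Cers6: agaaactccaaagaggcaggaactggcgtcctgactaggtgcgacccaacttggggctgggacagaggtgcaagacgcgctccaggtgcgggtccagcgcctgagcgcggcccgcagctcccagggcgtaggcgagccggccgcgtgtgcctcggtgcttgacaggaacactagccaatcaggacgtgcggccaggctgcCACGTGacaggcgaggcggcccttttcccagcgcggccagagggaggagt
Sgms1: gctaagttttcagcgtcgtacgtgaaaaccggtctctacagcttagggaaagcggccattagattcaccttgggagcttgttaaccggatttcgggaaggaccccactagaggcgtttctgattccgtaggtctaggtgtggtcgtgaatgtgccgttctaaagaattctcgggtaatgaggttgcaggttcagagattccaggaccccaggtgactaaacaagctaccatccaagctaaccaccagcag

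Smpd2 and Cers4, the genes that fell most at the same stages, have their promoters at chr20:46571742-46571991 on the minus strand and chr12:7649360-7649609 on the plus strand.
Smpd2: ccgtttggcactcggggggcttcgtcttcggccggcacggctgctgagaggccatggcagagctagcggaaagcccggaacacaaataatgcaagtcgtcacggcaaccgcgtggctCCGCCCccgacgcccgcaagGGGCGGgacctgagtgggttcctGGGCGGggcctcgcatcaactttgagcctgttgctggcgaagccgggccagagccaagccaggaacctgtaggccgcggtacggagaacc
Cers4: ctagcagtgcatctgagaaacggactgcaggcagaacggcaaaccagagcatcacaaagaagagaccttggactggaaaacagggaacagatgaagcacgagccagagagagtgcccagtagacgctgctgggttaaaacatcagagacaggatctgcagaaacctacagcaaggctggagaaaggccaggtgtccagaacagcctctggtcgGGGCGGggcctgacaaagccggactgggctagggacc

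An E-box stood 50 to 45 bases before the start of Cers6 and in none of the other 7 promoters of the group, and 5.59% of 33469 promoters in the table hold one. Smpd2 held 3 GC boxes and Cers4 held 1. With Cers2, Cers5 and Smpd1, 5 of the 8 promoters held a GC box, beside 30.5% of all promoters. The TEAD motif was found in the Sgms2 promoter alone, beside 12.1% of all promoters, and none of the 3 motifs was found in that of Sgms1. Bases G and C made up 67.6% of the printed Cers6 stretch, 66.8% for Smpd2, 56.0% for Cers4 and 50.4% for Sgms1, where the median of all promoters was 51.2%. These are matches of letters in a short window and not sites.

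Cers2, the synthase of very long chains, had its highest mean in healthy LSECs and its lowest in cirrhosis. It ran from 97.2 to 183 CPM in healthy libraries (median 153) and from 62.4 to 92.3 CPM in cirrhotic ones (median 69.6), with no overlap. The values were 116, 124, 103, 101 and 105 CPM in acute injury and 99.4, 103, 99.2, 106 and 95.2 CPM in fibrosis. Healthy libraries 5 and 6 were at 97.2 and 103 CPM, where the other healthy libraries were at 145 CPM or more. Cers2 (ENSRNOG00000021138) fell 1.90-fold in cirrhosis against healthy LSECs (log2 fold change -0.92, standard error 0.189, adjusted p = 0.00148). Acute injury and fibrosis gave log2 differences of -0.31 and -0.40 that did not pass the test (adjusted p = 0.143 and 0.0592). Without healthy libraries 5 and 6 the fibrosis difference was -0.62 (adjusted p = 9.66e-05) and passed. Scaling by library size alone brought the cirrhosis difference to -0.58, just short of the fold threshold. Cirrhosis against acute injury gave a log2 difference of -0.58 (adjusted p = 0.000209), also just short of it, with no overlap. Of 23 alternatives, 9 called this difference.

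Cers5 had the same order of group means. It ran from 109 to 252 CPM in healthy libraries (median 179) and from 66.3 to 93.7 CPM in cirrhosis (median 70.3). In acute injury it was at 115, 113, 97.5, 89.4 and 96.7 CPM, and in fibrosis at 77.8, 80.6, 76.5, 69.2 and 84.3 CPM. Fibrosis and cirrhosis lay below each healthy library, and the acute libraries overlapped with the lowest healthy one. Cers5 (ENSRNOG00000052990) fell 1.66-fold in acute injury, 2.14-fold in fibrosis and 2.35-fold in cirrhosis (adjusted p = 0.00301, 0.000145 and 0.000238). The acute call was lost under library size alone (-0.32) and without healthy library 3 (-0.58). From acute injury to fibrosis the log2 difference was -0.32 (adjusted p = 0.0226), under the fold threshold although no library of the groups overlapped, and from fibrosis to cirrhosis it was -0.08 (adjusted p = 0.449).

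Cers4 fell in acute injury and fibrosis and had a mean in cirrhosis close to the healthy one. Its level was 10.2, 12.1, 9.39, 8.06 and 9.44 CPM in acute libraries and 6.08, 6.65, 7.55, 6.03 and 5.54 CPM in fibrosis. Healthy libraries ran from 15.4 to 39.3 CPM (median 22.7) and cirrhotic ones from 23.4 to 30.5 CPM (median 25.8). No acute or fibrosis library reached the lowest library of the other stages. Healthy libraries 5 and 6, at 39.3 and 38.6 CPM, were well above the other healthy ones, the highest of which was at 24.7 CPM. Cers4 (ENSRNOG00000001072) fell 2.52-fold in acute injury (adjusted p = 0.000504) and 3.79-fold in fibrosis (adjusted p = 4.46e-05), and rose 4.19-fold from fibrosis to cirrhosis (adjusted p = 1.29e-08). Without healthy libraries 5 and 6 the log2 fold changes were -0.91 and -1.58 in place of -1.34 and -1.92, and both were still called. Cirrhosis and healthy differed by 0.09 on the log2 scale (95% interval -0.37 to 0.54, adjusted p = 0.733), and by 0.39 without healthy libraries 5 and 6 (adjusted p = 0.0341), under the fold threshold.

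The ratio of Cers6 to Cers2 within a library needs no scaling between libraries and differed widely between the stages. The log2 ratio of counts was -5.06 ± 0.998 in healthy LSECs (SD, n = 6), -1.04 ± 0.213 in acute injury (n = 5), -1.72 ± 0.118 in fibrosis (n = 5) and -3.43 ± 0.391 in cirrhosis (n = 6). Each acute library was above each fibrosis library, and each of these was above the cirrhotic ones, while healthy and cirrhotic libraries overlapped. Since gene lengths were not at hand, the ratio compares libraries and does not say which transcript is more abundant.

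Smpd2, a neutral sphingomyelinase, fell more than any other of the 10 genes in acute injury and fibrosis. In healthy libraries it ran from 109 to 404 CPM (median 231). It was at 21.8, 25.5, 19.8, 20.2 and 24.8 CPM in acute injury and at 19.9, 19.3, 24.2, 17.2 and 19.0 CPM in fibrosis. Cirrhotic libraries ran from 76.2 to 99.95 CPM (median 88.7), above each acute and fibrosis library and below each healthy one. The lowest healthy library was number 6 and the highest number 3. Smpd2 (ENSRNOG00000000306) fell 9.67-fold in acute injury (log2 fold change -3.27, standard error 0.263, adjusted p = 3.26e-07) and 10.6-fold in fibrosis (-3.41, standard error 0.266, adjusted p = 3.35e-07). Acute and fibrosis values differed by -0.09 (adjusted p = 0.573). From fibrosis to cirrhosis it rose 4.45-fold (adjusted p = 3.31e-09), and cirrhosis remained 2.49-fold below healthy LSECs (log2 fold change -1.32, adjusted p = 0.000804).

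Smpd1, the acid sphingomyelinase, was lowest in cirrhosis. It ran from 92.2 to 123 CPM there (median 109) and from 214 to 454 CPM in healthy libraries (median 356), with no overlap. Acute libraries were widely spread at 177, 106, 202, 252 and 224 CPM, and fibrosis libraries were at 213, 255, 215, 311 and 199 CPM. Smpd1 (ENSRNOG00000017977) fell 3.16-fold in cirrhosis against healthy LSECs (log2 fold change -1.66, standard error 0.176, adjusted p = 6.74e-05) and 2.20-fold against fibrosis (adjusted p = 2.18e-06). In acute injury it fell by 0.85 (adjusted p = 0.00625), a call that was lost when scaling by library size alone (-0.44). Fibrosis was lower than healthy by 0.46 on the log2 scale (adjusted p = 0.0434), short of the fold threshold, and passed it without healthy library 6 (-0.65) or without healthy libraries 5 and 6 (-0.62, adjusted p = 0.00279). Acute and fibrosis did not differ past the threshold (0.43, 95% interval -0.05 to 0.92, adjusted p = 0.183).

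Smpd3, the neutral enzyme linked to exosome release, was measured at a few CPM in each group. The values were 5.91, 5.91, 5.95, 6.59 and 5.27 CPM in acute injury and 4.02, 3.93, 3.92, 3.93 and 4.03 CPM in fibrosis. Healthy libraries ran from 4.08 to 6.42 CPM (median 4.74) and cirrhotic ones from 2.13 to 2.57 CPM (median 2.28). Cirrhosis was below each library of the other 3 stages, and fibrosis lay just below the healthy range. Smpd3 (ENSRNOG00000000257) fell 2.11-fold in cirrhosis against healthy LSECs (log2 fold change -1.08, standard error 0.171, adjusted p = 0.00031), 1.73-fold against fibrosis (adjusted p = 1.92e-05) and 2.56-fold against acute injury (adjusted p = 5.41e-07). Acute injury and fibrosis gave differences of 0.30 and -0.24 against healthy LSECs that did not pass the test (adjusted p = 0.134 and 0.213). With library size alone the acute difference was 0.71 and called (adjusted p = 0.0048), and that of fibrosis was 0.15 (adjusted p = 0.432). Counts behind these levels were 44 to 286 reads per library over all 32 libraries.

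**Figure D2:**
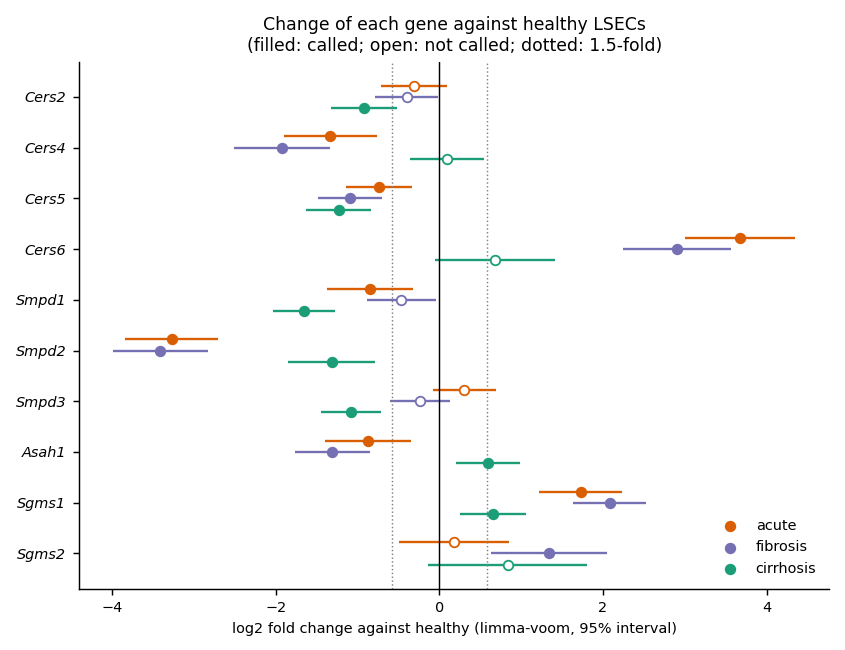
Log2 fold change of each gene in acute injury, fibrosis and cirrhosis against healthy LSECs (horizontal axis), with the 95% interval of limma-voom as a line. Filled points were called and open points were not. Cers6 lies at 3.68 and 2.90 in acute injury and fibrosis and Smpd2 at -3.27 and -3.41, while Asah1 is below 0 in those stages and at 0.59 in cirrhosis.

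Asah1, the lysosomal ceramidase, differed from healthy LSECs in opposite directions early and late. Its level was 41.7, 42.1, 43.4, 58.8 and 27.4 CPM in acute injury and 32.02, 30.7, 32.3, 29.2 and 26.2 CPM in fibrosis. In cirrhosis it stayed within 112 to 121 CPM (median 118). Healthy libraries ran from 56.9 to 117 CPM (median 70.2), with numbers 5 and 6 at 117 and 115 CPM and the others at 76.5 CPM or less. Fibrosis lay below each healthy library, one acute library exceeded the lowest healthy one, and healthy libraries 5 and 6 were within the cirrhotic range. Asah1 (ENSRNOG00000010034) fell by 0.87 in acute injury (standard error 0.244, adjusted p = 0.00577) and by 1.31 in fibrosis (standard error 0.212, adjusted p = 0.000136) on the log2 scale. In cirrhosis it was 1.51-fold higher than in healthy LSECs (log2 fold change 0.59, standard error 0.181, adjusted p = 0.0136). Against fibrosis and acute injury the rise in cirrhosis was 3.88-fold and 2.80-fold (adjusted p = 3.28e-10 and 1.13e-06).

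The Asah1 calls in acute injury and cirrhosis were both lost under some of the alternatives. The acute difference was -0.46 with library size alone (adjusted p = 0.16) and not called. Without healthy libraries 5 and 6, the acute difference was -0.48 and not called, and the cirrhosis difference was 0.85 (adjusted p = 3.39e-05). Leaving out single libraries brought the cirrhosis difference to between 0.50 and 0.70, under the fold threshold in 6 of 12 cases, namely without healthy 1, 2 or 4 (0.50, 0.52 and 0.54) or cirrhosis 1, 2 or 3 (0.58, 0.57 and 0.58). With edgeR and DESeq2 it was 0.54 and 0.56, again short of the threshold, with adjusted p = 0.0239 and 0.00961. Asah1 counts were not whole numbers in any of 32 libraries, and those of Cers2 in 29, because RSEM divides reads that match more than 1 gene. How much was divided was not tested. The other 8 genes had whole counts in each library, taken as deposited with no tolerance.

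Among the CCl4 groups, the ratio of Smpd1 to Asah1 set cirrhosis apart. The log2 ratio was 2.13 ± 0.764 in healthy LSECs (SD, n = 6), 2.15 ± 0.604 in acute injury (n = 5), 2.97 ± 0.280 in fibrosis (n = 5) and -0.12 ± 0.124 in cirrhosis (n = 6). The highest cirrhotic library was at 0.06 and the lowest of the 16 others at 0.89, which was healthy library 6. Healthy library 5 was at 1.52 and the other 4 healthy libraries were between 2.33 and 2.83. Healthy, acute and fibrosis libraries overlapped. In the TAA experiment the ratio was 0.12 ± 0.109 in the group labelled control and 0.09 ± 0.0713 in the group labelled TAA control (SD, n = 5 each). Libraries of both these groups overlapped with the cirrhotic ones.

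**Figure D3:**
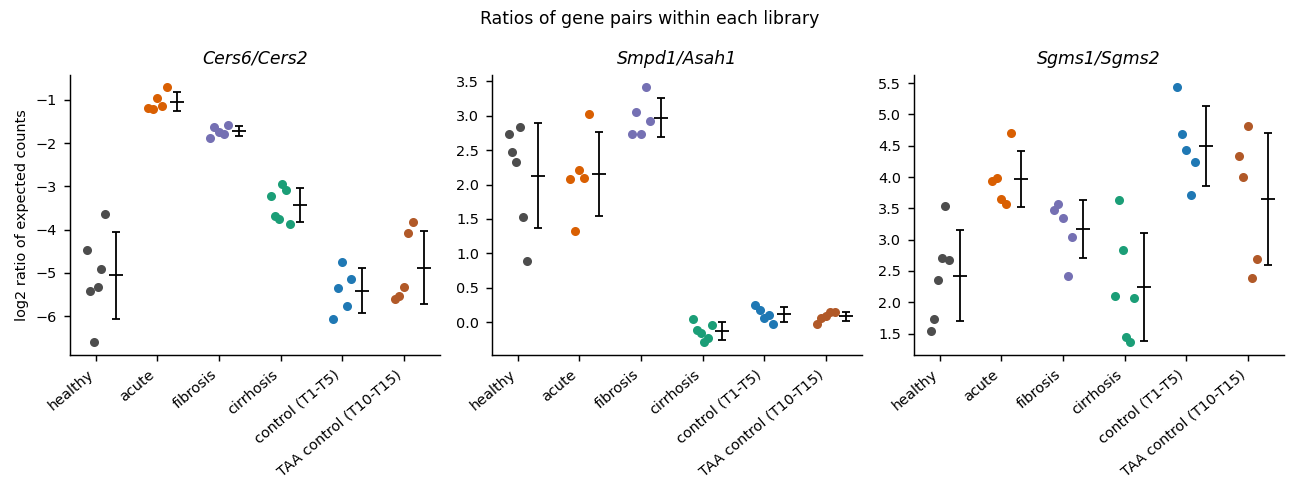
Log2 ratio of expected counts of 2 genes within each library (vertical axis) for Cers6 to Cers2, Smpd1 to Asah1 and Sgms1 to Sgms2 in the 4 CCl4 groups and the 2 groups of the TAA experiment. Points are libraries, and bars with whiskers are means and SD. The Smpd1 to Asah1 ratio of cirrhotic libraries (-0.29 to 0.06) lies below that of each other CCl4 library.

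Sgms1, the Golgi sphingomyelin synthase, rose at each stage. It was at 114, 90.8, 99.8, 118 and 162 CPM in acute injury and at 149, 164, 133, 151 and 126 CPM in fibrosis. Healthy libraries ran from 21.8 to 50.7 CPM (median 38.7) and cirrhotic ones from 47.7 to 66.1 CPM (median 54.8). The acute and fibrosis libraries were above each library of the other 2 groups, and healthy library 5 reached into the cirrhotic range. Sgms1 (ENSRNOG00000012536) rose 3.31-fold in acute injury (log2 fold change 1.73, standard error 0.233, adjusted p = 2.64e-05), 4.24-fold in fibrosis (2.08, standard error 0.204, adjusted p = 2.18e-06) and 1.57-fold in cirrhosis (0.65, standard error 0.189, adjusted p = 0.0102). The cirrhosis call went under the fold threshold without healthy library 2 (0.52) or 4 (0.58). Acute and fibrosis did not differ past the test (0.41, adjusted p = 0.0666), and cirrhosis was 2.60-fold below fibrosis (adjusted p = 1e-07).

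Sgms2, its plasma membrane counterpart, had its highest mean in fibrosis, with a wide spread. Fibrosis libraries were at 13.4, 13.7, 12.97, 28.2 and 15.3 CPM and acute ones at 7.43, 5.69, 7.92, 9.90 and 6.19 CPM. Healthy libraries ran from 4.20 to 14.9 CPM (median 6.63) and cirrhotic ones from 4.39 to 25.7 CPM (median 12.1). Each fibrosis library exceeded each acute one, whereas cirrhotic libraries overlapped with those of each other stage. Sgms2 (ENSRNOG00000011284) rose 2.53-fold in fibrosis against healthy LSECs (log2 fold change 1.34, standard error 0.325, adjusted p = 0.00263) and 2.30-fold against acute injury (adjusted p = 0.0104). The second of these calls was lost in a fit over all 4 CCl4 groups (adjusted p = 0.101). Cirrhosis and healthy differed by 0.83 with a 95% interval from -0.14 to 1.81 (adjusted p = 0.128). Without cirrhotic library 2, the lowest, the difference was 1.11 (adjusted p = 0.0319). Over the alternatives of the test and the libraries, DESeq2 and library size alone also passed that comparison (0.95 and 1.17). The log2 ratio of Sgms1 to Sgms2 was 2.42 ± 0.725 in healthy LSECs, 3.97 ± 0.448 in acute injury, 3.17 ± 0.467 in fibrosis and 2.24 ± 0.866 in cirrhosis, and acute libraries alone did not overlap with healthy ones.

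For the 3 genes with the widest ranges, the genes with the most similar course were taken as those whose 4 group means of log2 CPM, after centring, differed least among 10931 genes. The nearest to Cers6 was Glce, an epimerase of heparan sulphate synthesis, with 14.3, 148, 97.7 and 20.9 CPM in healthy, acute, fibrosis and cirrhosis (root mean square difference 0.0720 on the log2 scale), followed by Mtcl1 (0.112), a microtubule protein. The nearest to Smpd2 were Cyba, a subunit of NADPH oxidase (difference 0.0305), and the tetraspanin Cd81 (0.0389). The nearest to Sgms1 were Wwtr1, which encodes the Hippo pathway co-activator TAZ (difference 0.0252), and Fndc3b (0.0443). Likeness over 4 group means is a description of levels.

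The wider sphingolipid pathway was read from a list of 54 symbols beside the 10 genes, of which 52 were in the tables. In acute injury 32 of 41 genes tested were called, 8 higher and 24 lower, beside 73.4% of all genes. In fibrosis it was 32 of 41 with 6 higher and 26 lower, beside 70.2% of all genes, and in cirrhosis 26 of 43 with 9 higher and 17 lower, beside 51.8%. The median log2 fold changes were -0.97, -1.20 and -0.16, beside -0.09, -0.03 and 0.07 over all genes. From acute injury to fibrosis 2 of 40 were called, Sphk1 and B4galnt1, both higher in fibrosis by 2.02 and 1.87 (adjusted p = 0.0113 and 0.0469), beside 11% of all genes. Between fibrosis and cirrhosis it was 32 of 44 with 26 higher and 6 lower, beside 63.8% of all genes. Against acute injury, cirrhosis had 31 of 44 called, 23 higher and 8 lower, beside 69.3%. All 8 genes of lysosomal glycosphingolipid breakdown fell in acute injury and in fibrosis and rose from fibrosis to cirrhosis, with medians of -2.03, -2.27 and 1.77. Over all genes, 37.9% and 34.9% were called lower at these stages and 34.3% higher from fibrosis to cirrhosis. The course was not particular to this class, since 9 and 10 of 11 LSEC markers were lower and then 9 of 11 higher. Against healthy LSECs, 6 of the 8 lysosomal genes were still lower in cirrhosis, beside 24.7% of all genes. Among them were Psap, the precursor of the saposins (6751 ± 2020 CPM in healthy LSECs, 2600 ± 368 in cirrhosis, log2 fold change -1.32), and the hexosaminidase subunit Hexa (327 ± 98.8 and 128.5 ± 14.4 CPM, -1.28). The galactosidase Gla, named after its values were seen, was the 1 gene higher there, at 59.4 ± 12.9 against 33.6 ± 4.14 CPM.

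Among the other genes that rose most in acute injury were Col4a3bp, the ceramide transfer protein that supplies sphingomyelin synthesis (56.4 ± 28.7 CPM in healthy LSECs, 182.7 ± 39.5 in acute injury, log2 fold change 1.88), Samd8, a relative of the sphingomyelin synthases (15.3 to 42.4 CPM in healthy and 80.2 to 109.8 CPM in acute libraries, 1.85), and the alkaline ceramidase Acer3 (10.7 ± 6.05 to 33.1 ± 4.54 CPM, 1.82). The same 3 led in fibrosis with log2 fold changes of 1.95, 1.76 and 1.99. In cirrhosis the largest rises were in Degs2 (1.52), a desaturase at 0.89 ± 0.277 CPM, in Col4a3bp (1.41) and in the lactosylceramide synthase B4galt6 (1.09). The sphingosine kinase Sphk1 fell from 216 ± 202 CPM to 2.09 ± 1.77 in acute injury and 6.47 ± 2.40 in fibrosis (log2 fold changes -6.62 and -4.65, adjusted p = 6.81e-06 and 1.76e-05). The ganglioside synthase B4galnt1 fell from 30.7 ± 18.3 to 0.53 ± 0.213 CPM in acute injury and was at 38.6 ± 16.2 CPM in cirrhosis. It rose by 4.32 from fibrosis to cirrhosis and by 6.13 from acute injury to cirrhosis. Naaa, an acid amidase related to Asah1, was at 36.9 ± 11.7 CPM in healthy LSECs and 2.33 ± 0.862 in fibrosis (log2 fold change -3.92). The lyase Sgpl1 and the phosphodiesterase Smpdl3b had the largest falls from fibrosis to cirrhosis (-1.17 and -1.03) and from acute injury to cirrhosis (-1.38 and -1.31).

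Cers1 had the largest fitted falls of the list, and its counts cannot be read alone. It was at 0 in each acute and fibrosis library and in 1 cirrhotic library, against 516 to 856 expected counts in healthy libraries. Gdf1, which shares its transcript with Cers1 and was looked up after these values were seen, had the counts that complete it. In the 15 libraries where Cers1 was above 0, neither gene was whole, while their sum was (within 0.02). Cers1 was at 0 in the other 17, 4 control and 2 TAA control libraries among them, where the sum is the Gdf1 count alone. The summed level was 50.1 ± 15.1 CPM in healthy LSECs (SD, n = 6), 4.69 ± 0.407 in acute injury (n = 5), 5.29 ± 0.911 in fibrosis (n = 5) and 13.8 ± 2.57 in cirrhosis (n = 6). The lowest healthy library was at 25.9 CPM and the highest injured one at 17.9 CPM. How the reads divide between the 2 genes was not tested.

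**Figure D4:**
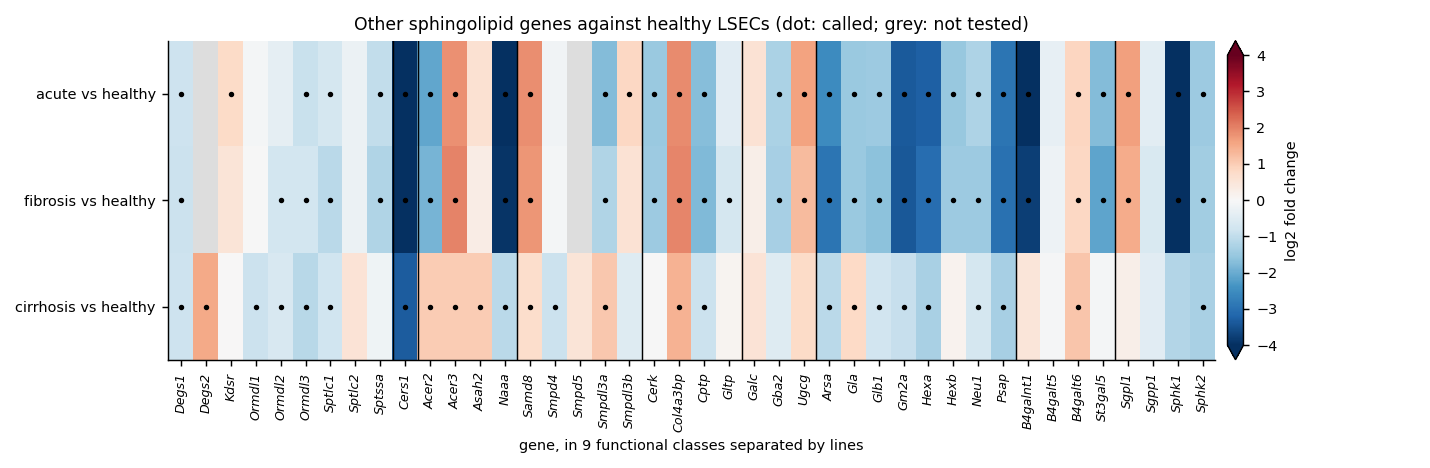
Log2 fold change of the other sphingolipid genes (columns, in 9 functional classes separated by lines) in acute injury, fibrosis and cirrhosis against healthy LSECs (rows), with colour from blue (lower) to red (higher), limited to 4 in each direction. Dots mark called genes and grey marks genes not tested. The class of lysosomal breakdown, from Arsa to Psap, is blue and dotted for 8 of 8 genes in the upper 2 rows.

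In the TAA experiment none of the 10 genes was called between the group labelled TAA control and the group labelled control by limma-voom, where 27.6% of 14376 genes tested were (12.7% higher, 14.9% lower). Without the fold threshold 4 of the 10 passed, beside 7139 of all 14376 genes tested. With an unadjusted p-value under 0.05 and the threshold, 0 of the 10 passed, beside 29.4% of all genes. The count was 0 with edgeR and with DESeq2 too. Smpd2 was at 96.9, 89.7, 104, 106 and 90.1 CPM in the control group and at 114, 124, 135, 154 and 151 CPM in the TAA control group (log2 difference 0.47, adjusted p = 0.00204). Asah1 was at 119.7, 126, 112, 100.5 and 113 CPM against 151, 144, 144, 135 and 136 CPM (0.32, adjusted p = 0.00376). Neither gene had overlapping groups, and the same held for Smpd1 (0.29, adjusted p = 0.0204) and for Sgms1, which was lower in the TAA control group (-0.35, adjusted p = 0.00546). Groups did not overlap in 35.4% of all genes tested. The 4 differences lie under the fold threshold.

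The remaining 6 genes overlapped between these groups. Cers6 stayed under 5 CPM, at 1.20, 2.21, 2.50, 1.27 and 1.94 CPM in the control group and at 1.70, 1.47, 1.84, 4.15 and 4.94 CPM in the other. Sgms2 was at 1.45, 2.24, 3.16, 5.00 and 3.76 CPM against 2.34, 3.10, 1.58, 10.7 and 8.85 CPM. In both genes the 2 high values belong to libraries 14 and 15, whose counts were closer to each other (chi-square per degree of freedom 3.05) than those of any other pair in a group (at least 25.2), so that whether they are separate rats was not settled. Without them the log2 differences of Cers6 and Sgms2 turned from 0.46 to -0.065 and from 0.42 to -0.34, with adjusted p = 0.872 and 0.521. Stellate cell markers summed to 2930 to 6250 CPM in the control group and 529 to 926 CPM in the TAA control group, with 9 of 10 called lower. Hepatocyte markers summed to 2330 to 5770 and 693 to 1570 CPM, with 6 of 10 called lower, and the 4 cholangiocyte markers tested were called lower. LSEC markers summed to 23200 to 29200 and 29600 to 38400 CPM, with 4 of 11 called higher. Lymphocyte markers summed to 3.93 to 29.1 and 21.1 to 47.8 CPM, with 3 of 5 tested called higher. For macrophage markers it was 23.9 to 161 and 79.5 to 322 CPM, with 1 of 9 tested called higher. Over all genes, 12.7% were called higher and 14.9% lower. The part of these cell types in the differences was not tested.

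**Figure D5:**
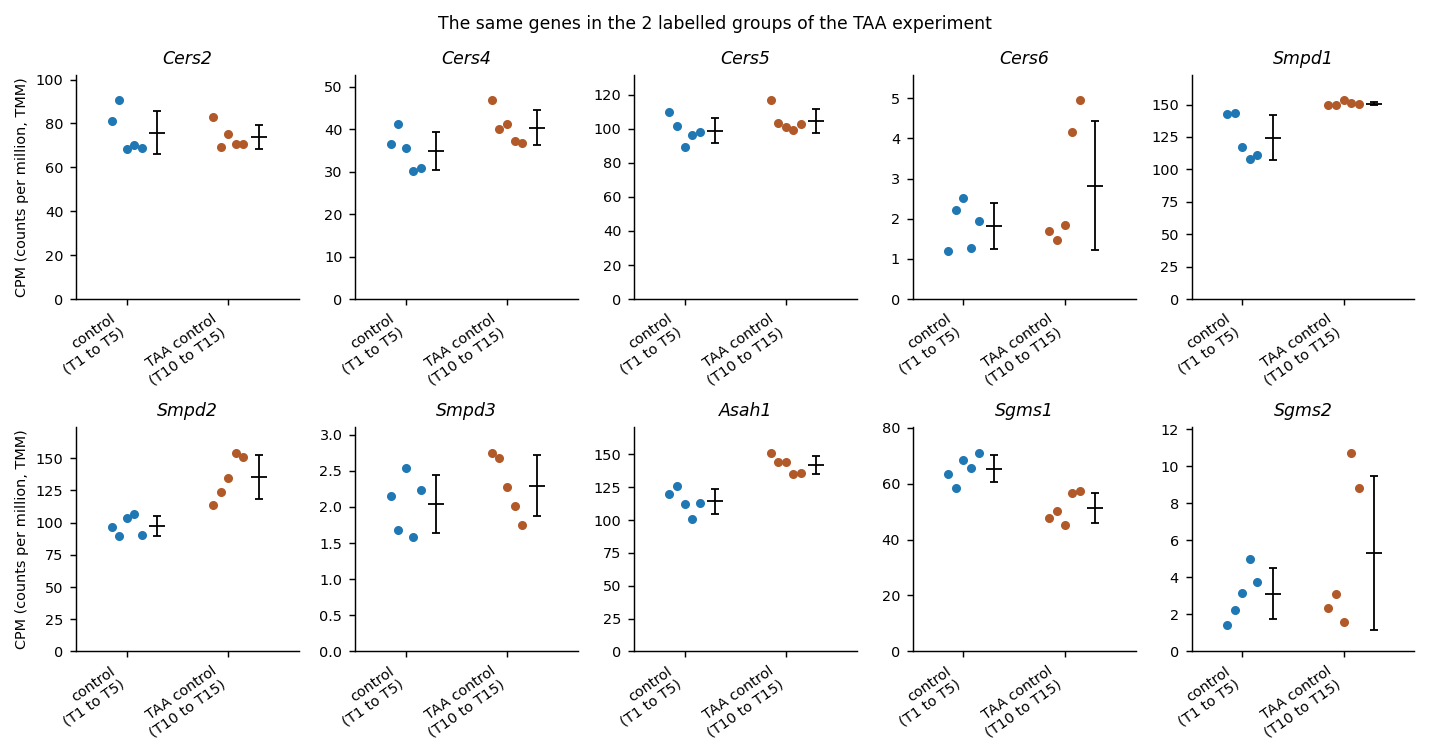
Level of each of the 10 genes in CPM (vertical axis, linear from 0) in the 5 libraries labelled control and the 5 labelled TAA control, scaled among these 10 libraries. Points are libraries, and bars with whiskers are means and SD. Smpd2, Asah1, Smpd1 and Sgms1 have groups that do not overlap, and the 2 high points of Cers6 (4.15 and 4.94 CPM) and Sgms2 (10.7 and 8.85 CPM) are libraries 14 and 15.

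Other sphingolipid genes passed in 7 of 41 cases in that experiment, 3 higher and 4 lower in the TAA control group, beside 27.6% of all genes (12.7% higher, 14.9% lower). The phosphatase Sgpp1 and the neutral ceramidase Asah2 had the largest rises (0.92 and 0.77, adjusted p = 0.000465 and 4.8e-05). B4galnt1 and B4galt5 had the largest falls (-2.64 and -1.22, adjusted p = 0.000317 and 0.000144), from 39.5 ± 18.8 to 6.19 ± 1.94 CPM and from 223 ± 41.8 to 95.4 ± 17.2 CPM. Without libraries 14 and 15, 11 genes of the list were called in place of 7. Over all alternatives run, this one among them, 3383 to 7139 of all genes were called.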

How the data were processed

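LSEC RNA of 32 libraries was sequenced from poly(A)-selected, strand-specific libraries. Per the labels and the paper, reads passed FastQC and Trim Galore, were mapped to Rnor_6.0 with STAR and quantified with RSEM; versions are not given in the sources used here. The authors deposited RSEM expected counts for each gene and library, not normalized and not pooled, and these estimated counts were rounded to whole numbers.

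In R 4.3.3, each comparison was fitted on its 2 groups with limma-voom (limma 3.58.1, edgeR 4.0.16 for TMM factors and filterByExpr), without covariates. Adjusted p-values are two-sided Benjamini-Hochberg values over all genes tested. The study used unadjusted p-values with the same fold-change threshold of 1.5, which was tried as an alternative. CPM and its group means use TMM factors over the 22 CCl4 or the 10 TAA libraries, while each fold change uses those of its own fit. Totals per library are given with the results. Rats differ between libraries of a group by the study's account; where they do not, p-values measure technical spread. Log2 ratios of genes took a pseudocount of 0.5.

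The 10 genes and all lists were chosen with earlier results of these data known. Other sphingolipid genes were named by rule as the 3 largest called rises and 3 largest falls against healthy LSECs and the 2 of each in other comparisons, and the like genes as the 2 nearest for the 3 widest ranges, with a mean log2 CPM of at least 1. Alternatives were edgeR's quasi-likelihood test, DESeq2 1.42.0, other scalings, filters and thresholds, weights per library, a single fit, a replicate block and left-out libraries. The limma-voom, edgeR and DESeq2 fits with default settings were run on simulated counts for acute injury against healthy only. Few genes were changed in that simulation, with as many up as down, where 73.4% of genes were called in the data. It therefore cannot show how the scaling or false calls behave at such a share. The other comparisons and alternatives were not simulated. Plots came from matplotlib 3.10.9 under Python 3.11.15. Groups come from the sample labels, with titles used where title and description number a library differently. Fold changes between the CCl4 and TAA libraries were not computed. A gene of the sphingolipid list is not reported here by itself and is left out of its plot.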

Additional observations from a re-analysis of the deposited data

Results flagged for a closer look

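Asah1 was called lower in acute injury and fibrosis and higher in cirrhosis against healthy LSECs. The acute and cirrhosis calls were lost under some alternatives. Cirrhosis was higher by 1.49 on the log2 scale than acute injury and by 1.96 than fibrosis, each difference tested directly (adjusted p = 1.13e-06 and 3.28e-10 from limma-voom). These 2 differences do not by themselves give the sign against healthy LSECs. In 66 groups of library values checked for a value far from the others of its group by Dixon's criterion, 6 were found, where chance gives about 3.3. Sgms2 was at 14.9 CPM in healthy library 1, where the next highest was at 6.76, and at 28.2 CPM in fibrosis library 16, where the next was at 15.3. Cers5 was at 93.7 CPM in cirrhotic library 6, with the next at 76.0, and at 117 CPM in library 10 of the TAA control group, with the next at 103. Total counts were 36916992 in acute library 4 (next 32986854) and 32631606 in control library 5 of the TAA experiment (next 28485839).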

How the results depend on the processing

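Counts against healthy LSECs and between cirrhosis and the earlier stages stayed within 1.5 times of the reported ones under the alternatives run. For fibrosis against acute injury, the members, the other sphingolipid genes and all genes called were 5, 6 and 2826 without the fold threshold and 1, 0 and 715 in a single fit of the CCl4 model. With a weight for each library there were 4 members and 2346 genes, and a filter of at least 1 CPM or library size alone left 1 other sphingolipid gene. Single libraries left out gave 1 to 2 other sphingolipid genes and 1011 to 2166 genes (1011 without acute library 1). In the TAA experiment 4, 19 and 7139 were called without the fold threshold, and 11 other sphingolipid genes without libraries 14 and 15. Signs turned in differences that had not been called: Cers2 in acute injury (0.10) and Smpd3 in fibrosis (0.15) with library size alone, Cers4 in cirrhosis without healthy library 2 (-0.049 to 0.21 with single libraries left out), Cers5 from fibrosis to cirrhosis with upper-quartile factors (0.0096), and in the TAA experiment Cers2 with upper-quartile factors (5.3e-05), without control library 2 (-0.070 to 0.037 with single libraries left out) or without libraries 14 and 15 (0.018), as did Cers6 (-0.065) and Sgms2 (-0.34). Of the values of single genes, 18 lost and 38 gained a call. Upper-quartile factors moved the median of all genes by 0.143 in cirrhosis against healthy and 0.185 against acute injury. Where no cause is named, the cause was not tested. Replicate numbers are shared by rats that differ, and correlations of deviations were not all over 0.1 (-0.24 to 0.29 for cirrhosis and healthy). A fit with the replicate block called 6 members in acute injury, without Asah1 (-0.44), and 7 in cirrhosis, and 10924 and 7275 genes. Leaving out healthy libraries 5 and 6 or libraries 14 and 15 was chosen after the data were seen.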
